A study of Mus musculus with 2 samples.

Results

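The 10 miRNAs described here are those known as targets of NF-kB, STAT3, cytokine or HIF signalling: mmu-miR-21a-5p and mmu-miR-21a-3p, mmu-miR-146a-5p, mmu-miR-146b-5p, mmu-miR-155-5p, mmu-miR-31-5p, mmu-miR-132-3p, mmu-miR-212-3p, mmu-miR-147-3p and mmu-miR-210-3p, written below without the mouse prefix. They were found by exact name among 1900 probes for mouse miRNAs, and each had 1 spot per array. The study set colonic epithelial cells of C57BL/6 mice, 8 weeks old, with colon inflammation from 2.5% dextran sulfate sodium (DSS) in the drinking water for 5 days against untreated control cells of the same strain and age. DSS, a sulfated sugar polymer, damages the lining of the colon and is a common model of colitis. Each condition was read on 1 array (DSS n = 1, control n = 1) after labelling of total RNA with the dye Hy5, so that no difference below has a replicate check or a p-value, and precision is limited by the number of arrays. The sources used here do not say whether cells of several mice were pooled.

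A miRNA acts through its seed, bases 2 to 8 from its 5′ end, which pairs with sites in messenger RNAs and lowers the protein made from them. Inflamed gut is known for several of these miRNAs: NF-kB drives miR-146a, miR-146b and miR-155 in leukocytes and epithelium, STAT3 drives miR-21, and HIF, the factor stabilised by low oxygen, drives miR-210. Many of their targets act back on the same pathways, such as IRAK1 and TRAF6 for miR-146a or SOCS1 for miR-155.

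RefSeq (GRCm38.p6) held the mature sequence of 9 of the 10, and miR-147-3p is named only. The sequences below are shown 5′ to 3′ with the seed in capitals, because the members fall into groups of shared seed, the array has to tell near-identical molecules apart, and base composition is taken up again further on. The first lines give miR-21a-5p (chr11:86584120-86584141, minus strand, inside the protein-coding gene Vmp1) with its relatives miR-21b (chr3:29636768-29636790, plus strand) and miR-21c (chr8:128278188-128278208, minus strand).
miR-21a-5p: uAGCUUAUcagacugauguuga
miR-21b: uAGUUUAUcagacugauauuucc
miR-21c: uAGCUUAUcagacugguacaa
miR-21a-3p: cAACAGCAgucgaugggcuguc
miR-210-3p: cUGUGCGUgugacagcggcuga
miR-132-3p: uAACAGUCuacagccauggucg
miR-212-3p: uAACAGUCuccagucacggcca
miR-146a-5p: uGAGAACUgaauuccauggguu
miR-146b-5p: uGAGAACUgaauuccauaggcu
miR-155-5p: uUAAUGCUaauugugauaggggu

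Shared seeds joined miR-146a-5p with miR-146b-5p and miR-132-3p with miR-212-3p. With positions counted from 1 at the 5′ end, miR-146b-5p differs from miR-146a-5p by G18A and U21C and is identical at 20 of 22 positions. miR-212-3p differs from miR-132-3p at 5 positions (A10C, C14U, U17C, U20C and G22A). miR-132-3p and miR-212-3p are neighbours on the plus strand of chromosome 11, at chr11:75173443-75173464 (miR-212-3p) and chr11:75173723-75173744 (miR-132-3p), 258 bases apart. miR-210-3p lies at chr7:141221407-141221428 on the minus strand, outside every other annotated gene of the table. miR-146a-5p is at chr11:43374435-43374456, minus strand. miR-146b-5p is at chr19:46342790-46342811, plus strand, within the long noncoding gene Gm36493. miR-155-5p comes from the long noncoding gene Mir155hg (chr16:84714143-84714165, plus strand), and miR-31-5p lies within Gm49890 (chr4:88910614-88910635, minus strand).

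On the arrays, 3 of the 10 miRNAs were measured above the blank spots in colitis epithelium: miR-21a-5p, miR-210-3p and, close to the limit, miR-212-3p. The same 3 were measured in control epithelium. The other 7, among them miR-146a-5p, miR-146b-5p, miR-155-5p and miR-31-5p, were above the limit on neither array. A probe counted as measured when its spot was brighter than the mean of the blank spots plus 2 SD, which was 130.9 intensity units on the DSS array and 99.6 on the control array. By this limit 61.6% of all miRNA probes were measured on the DSS array and 56.3% on the control array, 52.4% on both and 34.5% on neither. The limit does not exclude all spots without a miRNA probe. Of 174 spots named No Probe, 31.0% passed it on the DSS array and 9.77% on the control array, while 6.14% (DSS) and 7.25% (control) of the 896 blank spots did so. A stricter reading, brighter than every blank spot on both arrays, held for 31.1% of miRNA probes and left 2 of the 10, miR-21a-5p and miR-210-3p.

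**Figure D1:**
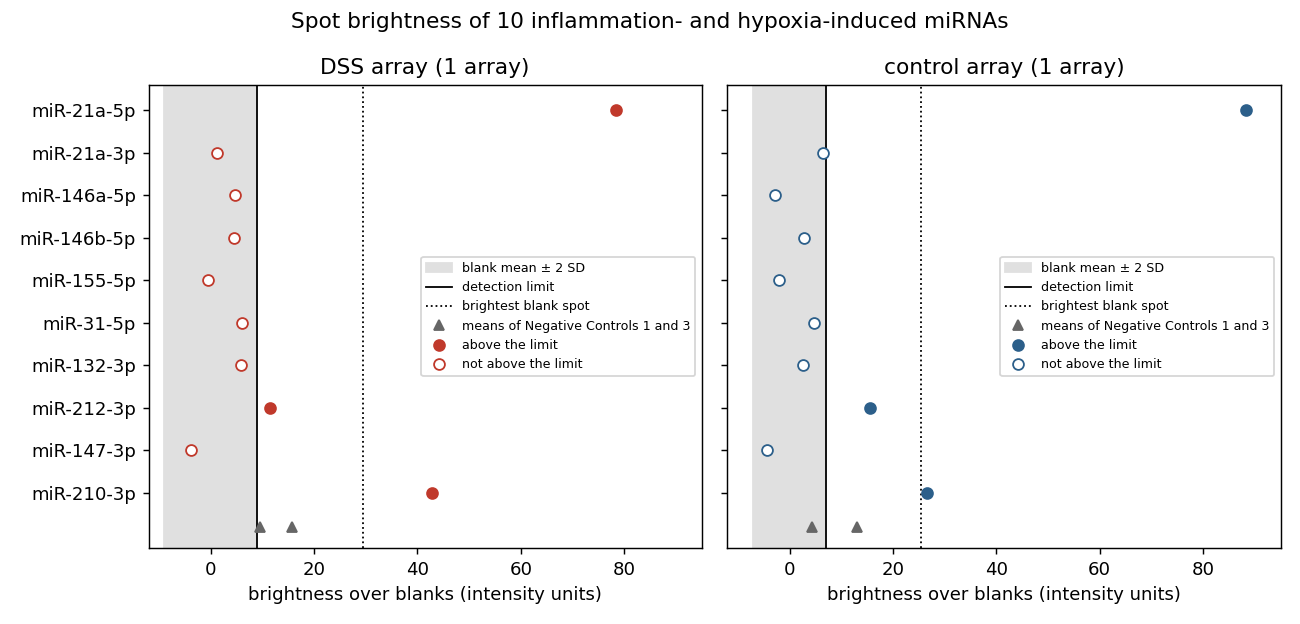
Spot brightness minus the mean of the blank spots (x axis, intensity units) for the 10 miRNAs, on the DSS array (left) and the control array (right), 1 array each. Filled points lie above the detection limit (solid line) and open points do not, the dotted line is the brightest blank spot, and triangles are the means of 2 sets of negative control spots. miR-21a-5p lies at 78.3 (DSS) and 88.3 (control), far from the blanks, and miR-212-3p lies next to the negative controls on the DSS array.

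miR-21a-5p, which STAT3 and NF-kB induce and which represses the translation inhibitor PDCD4, was measured in both. Its spot read 200.1 on the DSS array and 180.9 on the control array. The files list a background value for this spot of 191.2 (DSS) and 191.8 (control). Spot minus listed background was 8.96 on the DSS array and −10.8 on the control array, and its detection rests on the blank spots. At some bright spots the listed background was near the spot itself, as for miR-24-3p on the control array (4607.2, beside a spot of 4605.7). At others it was well below, as for miR-125b-5p on the DSS array (148.2, beside 278.0). Whether the listed value holds part of a spot's own signal was not tested. Over the blanks the miR-21a-5p spot was at 78.3 (DSS) and 88.3 (control), or 17.3 (DSS) and 25.3 (control) SD of the blank spots. No blank spot and no spot named No Probe was brighter on either array. The probes for its relatives gave no signal above the blanks. The miR-21b probe, for a miRNA identical at 18 of 22 positions, read 121.4 (DSS) and 86.9 (control), and that for miR-21c, which shares the seed and matches at 16 of 21 positions, read 117.1 (DSS) and 87.3 (control). All 4 of these values were below the blank mean of their array. The share of G and C bases (G+C content) is 30.4% in miR-21b and 38.1% in miR-21c. Under 35%, 17.6% (DSS) and 6.59% (control) of probes were measured, and from 35% to 45%, 27.8% (DSS) and 18.6% (control). Most probes of such composition were thus unmeasured, so these readings do not show that the miR-21a-5p spot is specific.

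The level of miR-21a-5p differed little between the conditions. After background correction with an offset of 50 and quantile normalisation, the log2 difference, DSS minus control, was 0.19 (1.14-fold). Among the 995 miRNAs measured on both arrays the median difference was −0.004 and the central 95% ran from −0.76 to 0.65, so miR-21a-5p lay well inside the bulk, with 193 miRNAs above it and 80.5% below it. The sign depended on how the arrays were scaled. The difference was −0.07 with no scaling and −1.04 when both arrays were set to the spike control spots, a scaling that moved the median of all measured miRNAs to −1.02. It lay 0.01 below the median of all measured miRNAs with 75th percentile, median, spike control or no scaling. These differ only by a constant per array, so this distance is the same in each by construction. In the authors' deposited table it lay 0.10 above the median. Repeat spots of a control probe (S-Probe6, 8 per array) had an SD of 5.24 intensity units on the DSS array and 6.22 on the control array. Over the blank mean of each array, the unscaled difference of miR-21a-5p was −9.93, beside a combined spot SD of 8.13. This SD covers the spread between spots and not that between animals or hybridisations. On the DSS array S-Probe6 averaged 19.8 over blanks, against 78.3 for miR-21a-5p. Its SD there may not hold for a spot that bright.

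miR-21a-3p, the other arm of the same hairpin (chr11:86584082-86584103), was not measured. Its spot read 123.1 on the DSS array and 99.1 on the control array, where it fell just short of the limit of 99.6. On the DSS array 361 of 896 blank spots were brighter.

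miR-210-3p, the miRNA most closely tied to HIF, which represses the iron-sulfur scaffold protein ISCU, was the second member clear of the blanks. Its spot read 164.6 on the DSS array and 119.3 on the control array, or 9.44 (DSS) and 7.64 (control) SD above the blank mean. All blank spots were dimmer on both arrays, although on the control array the margin over the brightest blank spot, at 118.0, was small and 1 of 174 No Probe spots was brighter. The normalised log2 difference was 0.32 (1.25-fold), the largest among the 3 measured members and still inside the central 95% of all miRNAs, of which 90.95% were lower. In the authors' deposited table miR-210-3p had 33.7 in DSS and 14.998 in control, a log2 difference of 1.17, past 2-fold. That table held 8.94% of miRNAs at least 2-fold higher, against 0.503% after the normalisation used here. The cause of that gap was not tested.

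The unscaled brightness of miR-210-3p over blanks was 1.60 times as high on the DSS array. Repeat spots of S-Probe1, a control set of similar brightness, averaged 174.1 ± 6.51 on the DSS array and 119.1 ± 4.21 on the control array (SD, 8 spots each), a ratio over blanks of 1.98. Spike Control 1 and Spike Control 2 were 2.05 and 1.88 times as bright on the DSS array. The sources used here do not say what S-Probe1 detects. Scaled to the spike controls, miR-210-3p was at −0.68, which was 0.34 above the median of all measured miRNAs. A scaling by a constant per array leaves this distance unchanged, so it was also 0.34 with no scaling. The part of array brightness in this difference was not tested.

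miR-212-3p and miR-132-3p come from 1 transcript that CREB and inflammatory signals induce. miR-212-3p read 133.4 on the DSS array and 108.3 on the control array. On the DSS array this was below the mean of the Negative Control 1 spots (137.6), and 36 of 174 No Probe spots were brighter. On the control array it stood above the brightest mean of a negative control set, 105.8, by a small margin. Its log2 difference was −0.11, but 0.08 with 75th percentile scaling and 0.05 in the authors' deposited table, so no direction is given. miR-132-3p, with the same seed, read 127.6 (DSS) and 95.2 (control) and was measured on neither array. All 6 other detection limits tried, among them 3 SD in place of 2 SD, left miR-212-3p unmeasured on the DSS array. Both miR-21a-5p and miR-210-3p passed all 6 on both arrays.

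**Figure D2:**
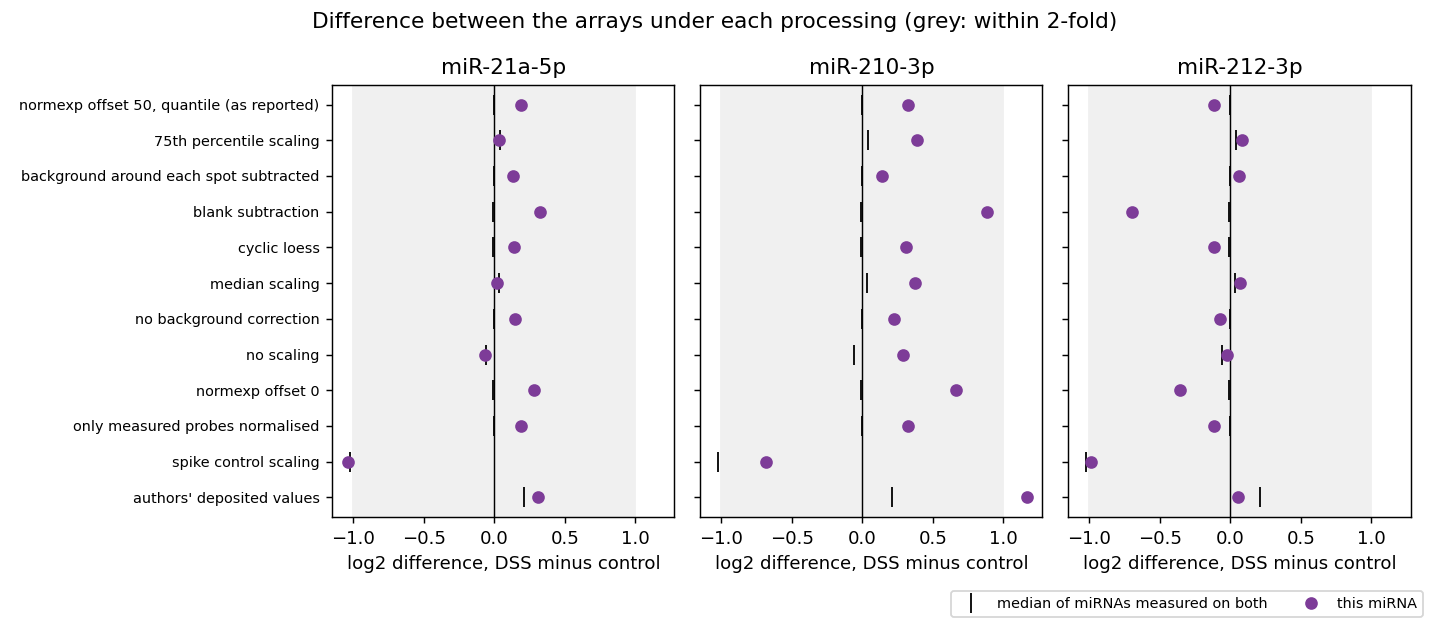
Log2 difference, DSS minus control (x axis), of the 3 members measured on both arrays, under the reported processing (top row) and 11 alternatives (other rows). Points are the miRNA, vertical ticks the median of the miRNAs that both arrays measured, and grey marks differences within 2-fold. miR-210-3p lies to the right of the tick in every row and reaches 1.17 in the authors' table, but its own value is below 0 with spike control scaling (−0.68).

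The NF-kB feedback miRNAs lay among the blanks. miR-146a-5p, which lowers IRAK1 and TRAF6, read 126.5 on the DSS array and 89.9 on the control array. In the DSS array 188 of 896 blank spots were brighter and in the control array 643. miR-146b-5p, with the same seed and targets, read 126.4 (DSS) and 95.5 (control), with 190 (DSS) and 234 (control) blank spots brighter. Neither had a level from which a fold could be formed.

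miR-155-5p, which is processed from a transcript abundant in activated lymphocytes and macrophages, read 121.4 on the DSS array and 90.7 on the control array. Both values were below the mean of the blanks. miR-147-3p, which Toll-like receptors induce in mouse macrophages, read 117.9 (DSS) and 88.2 (control), also below the blank mean in both. These readings do not show that the miRNAs were absent from the cells. They show only that no signal was detectable over this array's blanks.

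miR-31-5p, an epithelial miRNA known to rise in inflamed and regenerating gut, read 127.8 on the DSS array and 97.4 on the control array. It was 1.34 SD above the blanks on the DSS array and 1.37 SD on the control array, short of the limit in both. Over the 7 unmeasured members, brightness over blanks ran from −3.86 to 6.05 (median 4.59) on the DSS array and from −4.42 to 6.45 (median 2.56) on the control array. Spots named No Probe averaged 7.14 over blanks on the DSS array and 2.09 on the control array. Of the 7 members, 0 exceeded the No Probe mean on the DSS array and 4 did so on the control array (miR-21a-3p, miR-31-5p, miR-146b-5p and miR-132-3p).

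The other arms of the members' hairpins gave a similar picture. Of 8 such arms on the arrays, 2 were measured on both arrays and 4 on neither, while 1 passed only in DSS and 1 only in control. Over all miRNA probes 52.4% were measured on both arrays and 34.5% on neither. Of 1899 probes, 174 passed only in DSS and 75 only in control. miR-210-5p (chr7:141221445-141221466), the passenger arm of the miR-210 hairpin, was the clearest. Its spot read 191.5 on the DSS array and 165.4 on the control array, brighter than every blank spot, and its log2 difference was 0.19, or −0.97 with scaling to the spike controls. Both arms of the miR-210 hairpin were thus measured in both conditions, the 3p arm at 0.32 and the 5p arm at 0.19. With no scaling the 5p arm was at −0.0002. Its G+C content is 68.2%, and of 250 probes within 5 percentage points 92.0% (DSS) and 94.4% (control) were measured. Of these, 117 (DSS) and 133 (control) were brighter than miR-210-5p. miR-155-3p read 135.3 (DSS) and 105.2 (control), below the Negative Control 1 mean on the DSS array, with a difference of −0.01. miR-31-3p passed the limit on the DSS array only (131.9, against 97.3 in control) and miR-147-5p on the control array only (125.0 in DSS, against 104.9 in control), each near the limit.

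Whether a probe was measured moved with the base composition of its miRNA. Over 1613 probes with 1 RefSeq sequence, Spearman's rho between G+C content and brightness was 0.638 on the DSS array and 0.681 on the control array, a description across probes that share an array. Of probes with a G+C content of at least 65%, 92.2% were measured on the DSS array and 94.0% on the control array. Under 35% these shares were 17.6% (DSS) and 6.59% (control). The G+C content was 34.8% in miR-155-5p and 40.9% in both miR-146 members. Of 201 probes within 5 percentage points of miR-155-5p, 20.9% were measured on the DSS array and 11.4% on the control array. Of 419 within 5 points of the miR-146 members, 33.9% (DSS) and 22.7% (control) were measured.

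The 2 members brighter than every blank spot differed in composition. miR-21a-5p has a G+C content of 36.4%, and of the 282 probes within 5 points 25.2% were measured on the DSS array and 15.2% on the control array. miR-210-3p has 63.6%, where 89.2% of 418 probes were measured on each array. miR-21a-3p (59.1%) and miR-31-5p (54.5%) were unmeasured although most probes of like composition were measured. For miR-21a-3p these were 83.8% on the DSS array and 82.1% on the control array. For miR-31-5p they were 72.3% (DSS) and 66.7% (control). Brightness differs between probes with composition and is no measure of which miRNA was more abundant. The part of base composition in which members were measured was not tested further.

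**Figure D3:**
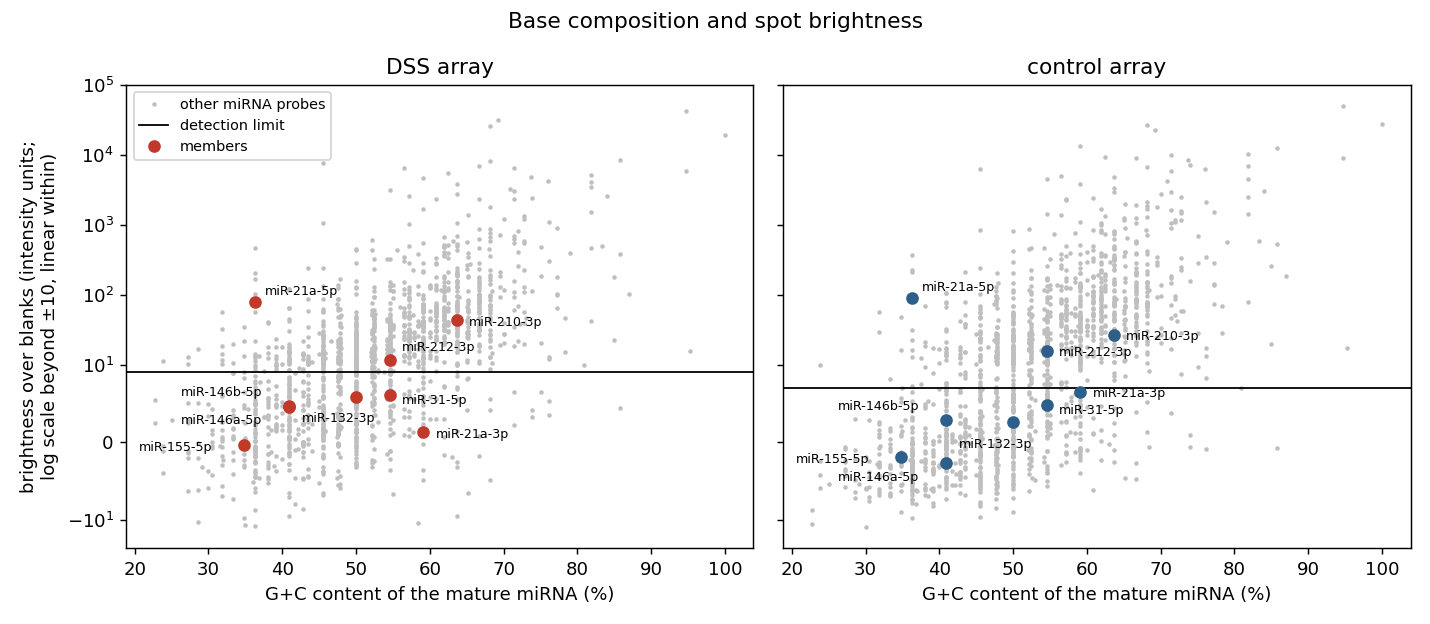
Spot brightness minus the blank mean (y axis, intensity units, logarithmic beyond ±10) against the G+C content of the mature miRNA (x axis, %), on the DSS array (left) and the control array (right). Small points are 1613 miRNA probes, large points the 9 members with a RefSeq sequence, and the line is the detection limit. miR-21a-5p, at 36.4% G+C, is above the limit in a range where few probes are, and miR-155-5p, at 34.8%, is below it.

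No member differed by 2-fold or more (0 of 3 measured on both arrays), beside 1.51% of all 995 miRNAs (0.503% higher and 1.01% lower). Of the 3, 2 were higher on the DSS array (48.1% of all miRNAs were) and the median difference was 0.19. With scaling to the spike controls all 3 were negative. In probes nearest to the members in normalised brightness on both arrays, the differences were alike by construction. They were miR-3569-5p (0.21) and miR-9768-5p (0.20) for miR-21a-5p, miR-6902-3p (0.38) and miR-6977-3p (0.30) for miR-210-3p, and miR-432 (−0.13) and miR-487b-5p (−0.10) for miR-212-3p, by Euclidean distance over 2 arrays.

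Other miRNAs reported as induced by NF-kB, STAT3, cytokines, injury or HIF formed a list of 20, of which 18 had a probe by that name. No probe carried the names miR-373-3p or miR-424-5p, and counterparts under other names were not sought. Of the 18, both arrays measured 12, the DSS array alone 2 and neither 4. Over all miRNA probes 52.4% were measured on both and 34.5% on neither. Of the 12, 10 were higher and 1 lower on the DSS array, while 48.1% of all 995 miRNAs were higher. The median difference of the 12 was 0.16, with a range from −0.11 to 0.91, and 0 passed 2-fold. With scaling to the spike controls all 12 were lower (median −0.84). With the background around each spot subtracted, or with no scaling, 9 were higher and 3 lower. At some bright spots, such as miR-24-3p on the control array, the listed background was near the spot itself. miR-125b-5p, a regulator of TNF and p53 messages, stood highest (0.91, and −0.43 with spike control scaling), at 278.0 on the DSS array and 183.0 on the control array. miR-107-3p (0.20) and miR-103-3p (0.25), both reported to respond to low oxygen, were slightly higher. Of the clustered miR-24-3p and miR-23a-3p the first was at 0.00 and the second at 0.51. miR-24-3p had rank 25 in brightness on both arrays, and quantile normalisation gives equal ranks the same value. Its unscaled brightness over blanks was 3187.9 (DSS) and 4513.0 (control). miR-221-3p was the 1 lower miRNA (−0.11), and miR-222-3p (136.7 in DSS, against 93.7 in control) and miR-34a-5p (132.2 in DSS, against 94.8 in control) passed the limit on the DSS array only. miR-9-5p, miR-181b-5p, miR-301a-3p and miR-135b-5p were measured on neither array.

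**Figure D4:**
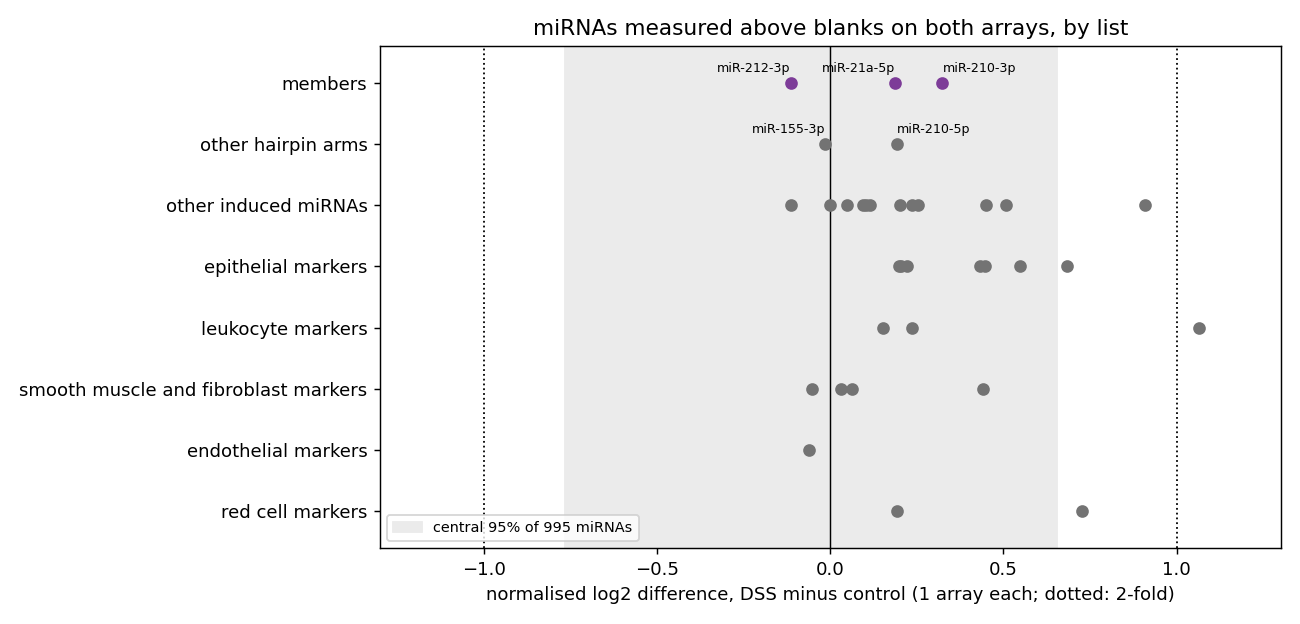
Normalised log2 difference, DSS minus control (x axis), of each miRNA measured above blanks on both arrays, by list (rows). miR-223-3p is in 2 lists. Grey is the central 95% of 995 miRNAs (−0.76 to 0.65) and dotted lines mark 2-fold. The 3 members lie between −0.11 and 0.32, inside the grey band, and miR-150-5p, a leukocyte marker, is the point past 2-fold (1.07, but −0.01 with spike control scaling).

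Most of the listed epithelial miRNAs were measured above the blanks. Of 8 epithelial markers (miR-200 family, miR-192, miR-194 and miR-215) 8 were measured on the DSS array and 7 on the control array. Over all miRNA probes these shares were 61.6% (DSS) and 56.3% (control). Summed brightness of the epithelial markers over blanks was 949.7 (DSS) and 921.2 (control). As for miR-21a-5p, some spots did not exceed the background listed for them, a value that at some bright spots was near the spot itself. Spot minus background was −9.06 (DSS) and −0.56 (control) for miR-192-5p. On the control array it was −8.31 for miR-200a-3p and −4.63 for miR-200c-3p. The other epithelial values were positive. Markers of other cells were present too. Of 5 leukocyte markers 4 were measured on the DSS array and 3 on the control array, with brightness over blanks from 2.59 to 80.6 (sum 161.5) on the DSS array and from −3.33 to 20.1 (sum 53.1) on the control array. miR-150-5p of lymphocytes read 202.4 (DSS) and 106.3 (control), miR-223-3p of myeloid cells 152.1 (DSS) and 110.1 (control), and the pan-leukocyte miR-142a-3p was measured on neither array. These are unscaled values. After normalisation the 3 leukocyte markers measured on both arrays had a median log2 difference of 0.24 (3 of 3 higher), which was −0.08 with the background around each spot subtracted (1 of 3 higher) and −0.70 with spike control scaling (0 of 3). The 7 epithelial markers had a median of 0.43 (7 of 7 higher), against 0.03 (4 of 7) and −0.85 (0 of 7) under the same alternatives. How far subtraction of the listed background also removes signal, where it is near the spot itself, was not tested. Among all 995 miRNAs measured on both arrays, 48.1% were higher after the reported normalisation. Of 5 smooth muscle and fibroblast markers 4 were measured on both arrays (sums 612.4 in DSS and 740.0 in control). Of 2 endothelial markers 1 was measured on both arrays, miR-126a-3p, at 11.3 over blanks in DSS and 11.6 in control. The other, miR-126a-5p, was measured on neither. Red cell markers (2 of 3 measured on both) summed to 136.2 in DSS and 85.5 in control. The part of these cells in the members' values was not tested, and in such bulk RNA fewer cells of a type and less RNA per cell cannot be told apart.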

How the data were processed

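Per the labels' protocols, the dye Hy5 was attached to total RNA with a miRCURY LNA kit, and 1 array was hybridised per condition. Per the file headers, the deposited scanner files list for each of 3200 spots a median intensity at 635 nm and a median background intensity, combined over 3 gains. At some bright spots the listed background was near the spot itself, and how far its subtraction removes signal was not tested. The authors also deposited a table with 1 processed intensity for each probe. All its values were rebuilt to within 0.001: the trimmed blank mean is taken off the spot intensity, the rest is multiplied by 0.787 (DSS) or 0.563 (control), and unmeasured probes are empty, as is the 1 probe with a poor quality flag on the control array. The sources used here name neither the array's maker nor the reading software.

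The blank mean was taken after removing 45 of the 896 blank spots at either end, which gave 121.8 (SD 4.53) on the DSS array and 92.7 (SD 3.49) on the control array. Of the 1900 miRNA probes, 12 name several miRNAs and 1 was dropped for a poor quality flag. Background was corrected by the normexp method of limma 3.58.1 in R 4.3.3, on all spots together and with 50 added as offset. Quantile normalisation of the log2 values over miRNA probes followed. Differences were formed only for miRNAs measured on both arrays, without a test. Simulated arrays with known changes were used to check the procedure. The changes were placed only in probes brighter on the control array than the median of spots measured on both arrays. Dimmer probes, such as those of miR-210-3p and miR-212-3p, were therefore not covered. The sign of the changes had to be recovered only with blank subtraction.

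The members, lists, settings and the rule for naming miRNAs were chosen with earlier results of these data known. Named are all members, their other hairpin arms, listed induced miRNAs and cell markers, the 2 nearest probes in brightness, sequence relatives and control spots. miR-21b and miR-21c, the repeat control spots used to gauge spot error and the comparison by G+C content were added after their values were seen. Alternatives covered 6 detection limits, 1 of which (No Probe spots) was added after seeing the data, and 11 ways to form the differences.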

Additional observations from a re-analysis of the deposited data

How the results depend on the processing

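With 6 other detection limits, 2 of the 10 members were measured on the DSS array each time, while the share of all miRNA probes measured there was between 37.7% and 53.6%. On the control array the count was 2 with a limit of 5 SD above the blanks and 3 with the others, and the share of all probes between 43.0% and 54.0%. Repeat spots of S-Probe1 and S-Probe6 gave an average SD of 0.11 for a log2 difference between the arrays. Among the other control sets examined this SD ran from 0.093 (Negative Control 3) to 0.26 (QC-Probe). The log2 difference, DSS minus control, moved by more than 0.11 or changed sign as follows. For miR-21a-5p it was 0.031 with 75th percentile scaling, 0.022 with median scaling, −0.069 with no scaling, −1.04 with spike control scaling, 0.32 with blank subtraction and 0.31 in the authors' values. For miR-210-3p it was 0.89 with blank subtraction, 0.66 with an offset of 0, 0.14 with the background around each spot subtracted, −0.68 with spike control scaling and 1.17 in the authors' values. For miR-212-3p it was 0.080 with 75th percentile scaling, 0.072 with median scaling, 0.061 with the background around each spot subtracted, −0.69 with blank subtraction, −0.36 with an offset of 0, −0.99 with spike control scaling and 0.054 in the authors' values. The count of members past 2-fold was 1 with spike control scaling (miR-21a-5p, lower) and 1 in the authors' values (miR-210-3p, higher), and 0 otherwise. Past 1.5-fold it was 0 as reported, 2 with blank subtraction, 1 with an offset of 0, 3 with spike control scaling, 1 in the authors' values and 0 under the other 7 alternatives. An added offset draws log2 differences toward 0 by arithmetic. Otherwise the cause of these shifts was not tested. The share of all miRNAs past 2-fold was 55.2% with spike control scaling. Over all 995 miRNAs, median scaling put 2 higher and 42 lower by 2-fold, 75th percentile scaling 2 and 41, no scaling 1 and 51, spike control scaling 0 and 549, and the authors' values 89 and 41, against 5 and 10 as reported. No paired analysis was possible because each group has 1 array. For the 7 members near the blanks, signal over background limits any statement.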

Other observations

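Some control spots moved against the rest. S-Probe6, whose target the labels do not name, averaged 141.6 ± 5.24 on the DSS array and 189.0 ± 6.22 on the control array (SD, 8 spots each), a ratio over blanks of 0.206, while S-Probe1 had a ratio of 1.98. The spot of miR-210-3p exceeded the background listed for it on both arrays, by 53.3 (DSS) and 20.4 (control). At some bright spots that background was near the spot itself, so this margin does not rank the members. Over the blanks miR-210-3p stood at 9.44 (DSS) and 7.64 (control) SD, against 17.3 (DSS) and 25.3 (control) for miR-21a-5p.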
